A study of Homo sapiens with 6 samples.

Results

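The genes described here are 10 transcripts of the integrated stress response, namely ATF4, DDIT3, DDIT4, ASNS, TRIB3, CHAC1, PSAT1, PHGDH, SLC7A5 and VLDLR. They were taken by gene symbol from the deposited expression table and make up 10 of its 17047 genes. The cells were HCT116, an established human colorectal carcinoma line, carrying lentiviral vectors for either a non-targeting shRNA (shNC, replicates 1 to 3) or an shRNA against PLEK2 (replicates 1 to 3). A single PLEK2 shRNA sequence was listed, so effects of the knockdown and of that hairpin cannot be told apart, and no label states whether the 3 replicates of a group came from separate cultures. P-values therefore measure the spread between these libraries, which may be technical.

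The integrated stress response starts when 1 of several kinases phosphorylates the translation factor eIF2, which lowers protein synthesis in general and favours translation of the ATF4 mRNA. ATF4 is a transcription factor whose targets include the synthesis and import of amino acids and tRNA charging, and, under lasting stress, CHOP (DDIT3) and genes linked to cell death. Because ATF4 itself is controlled largely in translation, the level of its mRNA need not follow the activity of the pathway.

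ATF4 and its C/EBP partners bind a composite DNA element, the C/EBP-ATF response element, searched here as TGATGNAA on both strands. RefSeq promoter windows, which run from 250 bases before to 50 after each transcript start on GRCh38.p14, were matched for all 10 genes (15 windows). The element occurred in 3.62% of all 35116 windows and in 4.46% of the 27305 genes with a window, and in 2 of the 10 stress response genes, ASNS and CHAC1. The promoters of these 2 genes are shown because they were the ones that held the element. CHAC1 was highest in replicate 1 of both groups and ASNS in replicate 2. The 250 bases before the start are given 5′ to 3′ on the strand of the gene, with the element in capitals. It lies 68 to 61 bases before 1 start of ASNS (chr7:97872409-97872658, minus strand). The window of another ASNS start (chr7:97872116-97872415) did not hold it. In CHAC1 it lies 209 to 202 bases before the start (chr15:40953221-40953470, plus strand), where it reads on the opposite strand.
ASNS: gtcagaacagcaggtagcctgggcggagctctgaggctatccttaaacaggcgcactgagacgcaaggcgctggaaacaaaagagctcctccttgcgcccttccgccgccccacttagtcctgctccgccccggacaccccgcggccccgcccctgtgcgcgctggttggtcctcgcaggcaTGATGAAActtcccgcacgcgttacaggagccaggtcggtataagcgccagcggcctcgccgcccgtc
CHAC1: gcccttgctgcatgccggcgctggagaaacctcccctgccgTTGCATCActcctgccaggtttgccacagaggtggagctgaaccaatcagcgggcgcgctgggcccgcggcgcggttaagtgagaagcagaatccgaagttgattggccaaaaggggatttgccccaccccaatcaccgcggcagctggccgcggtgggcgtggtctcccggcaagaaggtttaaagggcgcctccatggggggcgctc
The ATF6 element, CCAAT followed by 9 bases and CCACG, occurred in 0.0769% of windows and in none of the 10 genes. A match describes letters in these windows and does not show binding.

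PLEK2 mRNA was measured first as the check of the knockdown. It stood at 86.0, 72.6 and 82.9 CPM (estimated counts scaled by the library total and its TMM factor) in shNC replicates 1, 2 and 3, and at 16.0, 32.2 and 34.9 CPM with PLEK2 shRNA. The groups did not overlap, and the lowest value was in PLEK2 shRNA replicate 1. Library totals lay between 14377532 and 15602732 estimated counts. The 8 colon epithelial markers summed to 5059 to 5813 FPKM in shNC and 4220 to 5380 FPKM with PLEK2 shRNA. KRT8 gave most (mean 2242 FPKM) and VIL1 was lowest at a mean of 0.035 FPKM. LGALS4 was also near 0, with a mean of 0.16 CPM in shNC and 0 CPM with PLEK2 shRNA. The 8 markers of other cell types summed to 29.5 to 43.1 FPKM in shNC and 32.2 to 38.0 FPKM with PLEK2 shRNA, of which CD68 gave most (mean 26.9 FPKM).

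Compared in FPKM, which scales a count by transcript length and library total, over the 6 libraries, the most abundant of the 10 mRNAs was SLC7A5, the light chain of the large neutral amino acid transporter, at 255 to 362 FPKM with a median of 314. ATF4 followed at 165 to 192 FPKM, median 178.5. The enzymes of asparagine and serine synthesis came next, ASNS with a median of 62.5, PSAT1 with 54.0 and PHGDH with 39.9 FPKM. DDIT4, an inhibitor of mTORC1 signalling, had a median of 24.9 FPKM and a highest value of 48.3, and TRIB3, a pseudokinase induced by ATF4 and CHOP, lay between 21.1 and 24.3 FPKM. DDIT3, which encodes CHOP, had a median of 6.38 FPKM, CHAC1, a glutathione-degrading enzyme, 2.21, and VLDLR, a lipoprotein receptor, 0.005 FPKM. In this order the ranges of ASNS and PSAT1 overlapped, as did those of PHGDH and DDIT4, DDIT4 and TRIB3, and DDIT3 and CHAC1, while the other neighbours did not.

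VLDLR had 2, 2 and 1 counts in shNC replicates 1, 2 and 3 and 0 in each PLEK2 shRNA library. A count of 0 allows up to 3 counts in a library, so both groups lie at or below that floor, no fold change is given, and a change of VLDLR was not detectable at this depth. It did not pass the filter on low counts, and the tests below concern the other 9 genes among 12959 tested.

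**Figure D1:**
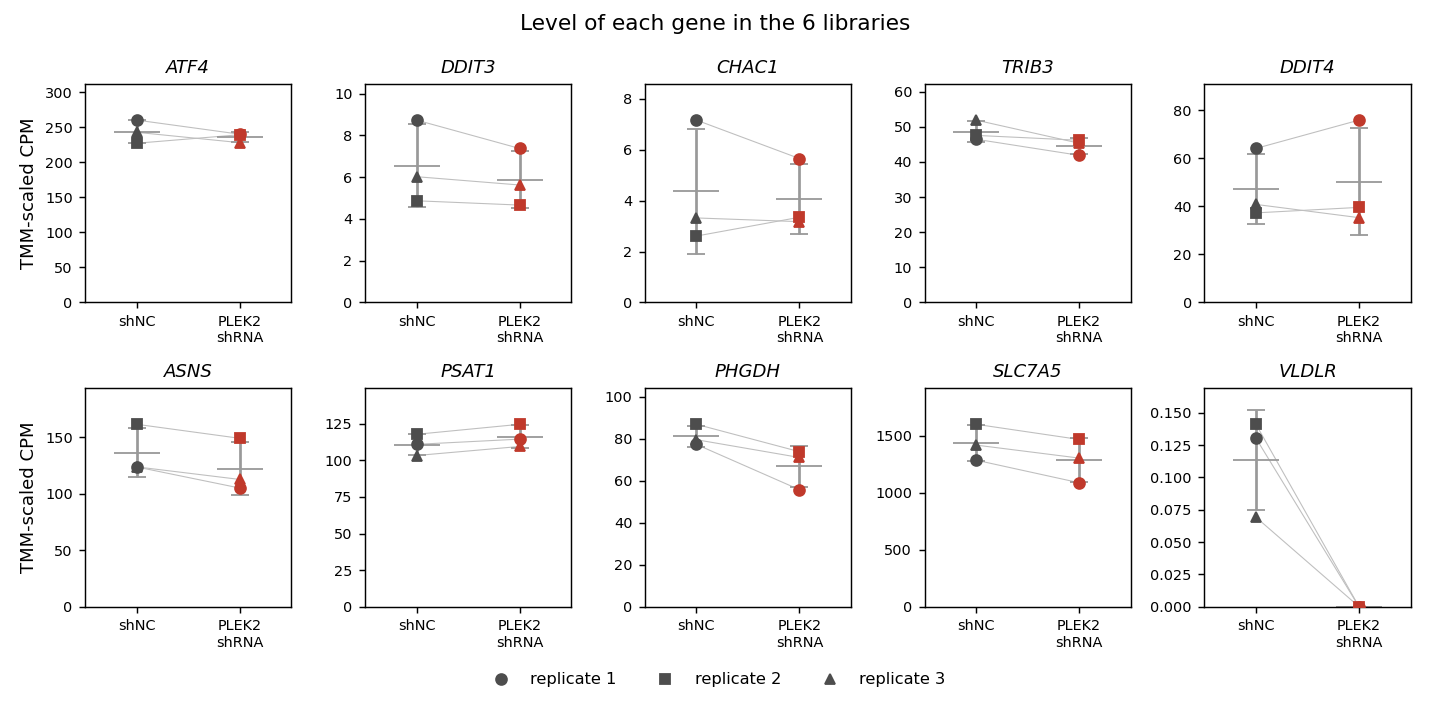
TMM-scaled CPM of the 10 genes (y axis, linear from 0, a scale for each gene) in shNC and PLEK2 shRNA libraries; points are single libraries marked by replicate number, thin lines join libraries of the same number, and grey bars give the mean and SD (n = 3). CHAC1, DDIT4 and DDIT3 were highest in replicate 1 of both groups (CHAC1 7.17 and 5.66 CPM), and PHGDH was lower with PLEK2 shRNA in all 3 pairs.

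The first comparison asked whether PLEK2 knockdown moved the stress response mRNAs. Without a term for the replicate number, edgeR's quasi-likelihood test called 0 of the 9 genes at a Benjamini-Hochberg adjusted p under 0.05, where it called 0% of all genes tested. PLEK2 itself was not called in this fit (log2 fold change -1.54, adjusted p = 0.684, edgeR). A lack of calls there therefore says little about the 9 genes. At an unadjusted p under 0.05 the same test called 400 genes (3.09%), among them PHGDH. DESeq2 called 12 genes and limma on log2(FPKM + 1) called 0, none of them among the 9. Libraries with the same number varied together across genes, and with the replicate number as a block edgeR called 94 genes down (0.725%) and 16 up (0.123%), again none of the 9. PLEK2 was among the genes down (log2 fold change -1.57, adjusted p = 0.00106, edgeR with the block). In bulk RNA, fewer cells of a kind and less RNA per cell cannot be told apart. At an unadjusted p under 0.05 the blocked test gave 2377 genes (18.3%), including ASNS, PHGDH and SLC7A5.

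PHGDH, the first enzyme of serine synthesis from glycolysis, had the largest difference of the 9 in size. It measured 77.2, 86.8 and 79.5 CPM in shNC replicates 1, 2 and 3 and 55.7, 73.8 and 71.0 CPM with PLEK2 shRNA. Each PLEK2 shRNA library was below every shNC library, the nearest being 73.8 and 77.2 CPM. The log2 fold change was -0.28 (SE 0.12, unadjusted p = 0.0409, adjusted p = 0.968, edgeR) without the block and -0.29 (SE 0.07, adjusted p = 0.0666) with it. The difference was -0.47 in pair 1, -0.23 in pair 2 and -0.16 in pair 3 on the log2 scale. That of PLEK2 was -2.42, -1.17 and -1.24 in pairs 1, 2 and 3. Pair 1 was thus lowest for both genes, pairs 2 and 3 stood in reverse order, and a relation was not tested. Among the alternatives that returned an adjusted p, PHGDH passed the threshold in 1, the blocked fit without replicate 3 (log2 fold change -0.34, adjusted p = 0.00814), and the blocked test of DESeq2 returned none for it. Its log2 fold change was -0.16 without PLEK2 shRNA replicate 1 and -0.19 in the blocked fit without replicate 1. PSAT1, the next enzyme of the same route, went the other way in each pair. It measured 111, 118 and 103 CPM in shNC and 115, 125 and 110 CPM with PLEK2 shRNA, a log2 fold change of 0.07 (95% interval -0.05 to 0.19 with the block, adjusted p = 0.511), and the groups overlapped.

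ASNS, asparagine synthetase, measured 124, 161 and 124 CPM in shNC and 105, 149 and 113 CPM with PLEK2 shRNA. Every knockdown library was below its partner, although the groups overlapped, and the spread between replicate numbers was wider than the step between groups. Its blocked log2 fold change was -0.16 (SE 0.05, adjusted p = 0.150). SLC7A5 measured 1287, 1602 and 1420 CPM in shNC and 1089, 1469 and 1306 CPM with PLEK2 shRNA, and its groups overlapped in the same manner. The blocked log2 fold change was again -0.16 (SE 0.05, adjusted p = 0.149). Without the block, leaving out 1 library moved ASNS to between -0.32 (PLEK2 shRNA replicate 2) and -0.0093 (shNC replicate 2), and SLC7A5 to between -0.26 (PLEK2 shRNA replicate 2) and -0.050 (PLEK2 shRNA replicate 1). Counts of ASNS and ATF4 carried decimals in all 6 libraries, and those of SLC7A5 in all but 1. Counts do so when reads are divided between similar sequences, so the levels of these genes are uncertain to that extent.

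TRIB3 measured 46.5, 47.6 and 51.9 CPM in shNC and 41.9, 46.2 and 45.3 CPM with PLEK2 shRNA. The groups did not overlap in CPM, the nearest being 46.5 and 46.2 CPM, and did overlap in FPKM, and the log2 fold change was -0.13 (SE 0.06, adjusted p = 0.304, blocked). ATF4 itself measured 260, 227 and 243 CPM in shNC and 240, 239 and 228 CPM with PLEK2 shRNA. Its groups overlapped, and the 95% interval of the blocked log2 fold change ran from -0.16 to 0.08. The intervals were widest for the 3 genes that varied most between replicates. They ran from -0.45 to 0.16 for DDIT3, from -0.12 to 0.23 for DDIT4 and from -0.47 to 0.32 for CHAC1, the last on 37 to 110 counts a library.

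Described by direction alone, 5 of the 9 genes (DDIT3, ASNS, TRIB3, PHGDH and SLC7A5) were lower with PLEK2 shRNA in all 3 pairs, as were 21.1% of all genes tested. In FPKM the count was 4, since TRIB3 was higher in pair 2. For DDIT3, pair 2 rested on 69 counts in shNC and 71 with PLEK2 shRNA, a log2 ratio of -0.06 after scaling. PSAT1 was the 1 gene higher in all 3 pairs (19.9% of all genes). The groups did not overlap for TRIB3 and PHGDH, both lower (5.12% of all genes), and for 0 genes on the higher side (4.08%). The median blocked log2 fold change of the 9 genes was -0.13, with DDIT4 and PSAT1 on the positive side, and that of all genes was -0.0018. The 6 tested colon epithelial markers had a median blocked log2 fold change of -0.21, and 4 of them were lower in all 3 pairs. With the block, 4 had an unadjusted p under 0.05 (among them CDH1 at -0.33 and KRT18 at -0.24), and 0 passed after adjustment. EPCAM (2.4e-05) and CDX2 (-0.04) had no such p. The part of these markers in the values of the stress response genes was not tested.

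**Figure D2:**
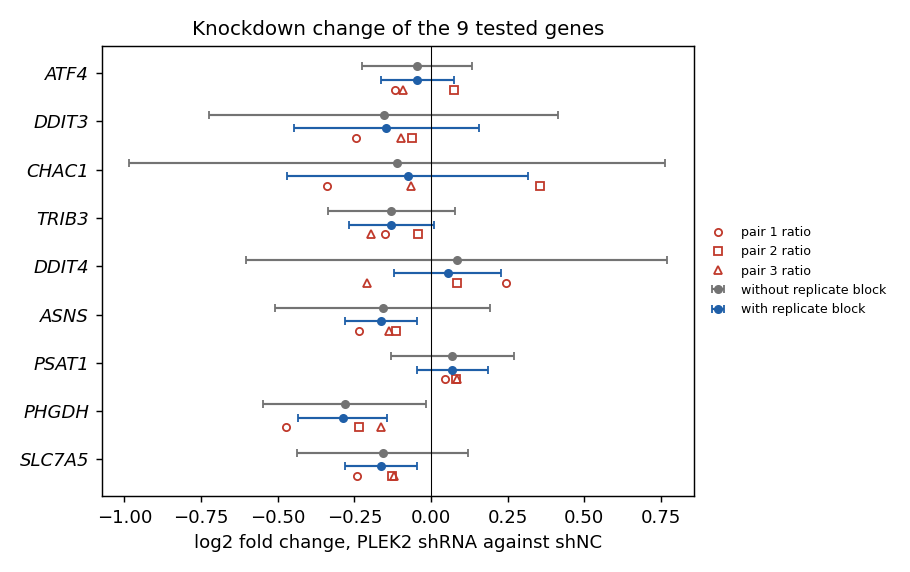
Log2 fold change with PLEK2 shRNA against shNC (x axis) for the 9 tested genes; filled points and bars are edgeR estimates with 95% intervals, grey without and blue with the replicate block, and open symbols are the ratios of the 3 same-numbered pairs. PHGDH lies furthest below 0 (-0.29 with the block), and the block narrows the intervals of CHAC1, DDIT4 and DDIT3 most visibly.

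The second comparison asked whether libraries that share a replicate number differed from the others in both groups. In a test of the replicate number term beside the shRNA group (edgeR, both groups together, 2 degrees of freedom), 6 of the 9 genes passed an adjusted p of 0.05, where 28.4% of all genes tested did. The 6 genes were DDIT4, ASNS, CHAC1, SLC7A5, DDIT3 and PHGDH. The median span between the highest and lowest replicate number was 0.37 on the log2 scale over the 9 genes and 0.25 over all genes tested. What the numbers stand for (a culture, a day or a preparation) is not given in the sources used here.

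The genes did not move together. Replicate 1 was the highest library of both groups for ATF4, DDIT3, DDIT4 and CHAC1 (4 of 9, against 29% of all genes), and the lowest library of both groups for ASNS, TRIB3, PHGDH and SLC7A5 (4 of 9, against 30.6%). PSAT1 did neither. These orders were the same with library totals and in FPKM except for TRIB3, which was not lowest in shNC replicate 1 in FPKM. Of the 6 genes that passed the replicate term, 3 had their highest and 3 their lowest level in replicate 1 of both groups.

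CHAC1 measured 7.17, 2.61 and 3.32 CPM in shNC replicates 1, 2 and 3 and 5.66, 3.35 and 3.18 CPM with PLEK2 shRNA. Replicate 1 stood apart in both groups and was 2.04-fold above the mean of replicates 2 and 3 (adjusted p = 0.00375 for the replicate term). DDIT4 showed the same order of replicate 1 against the others, at 64.1, 37.3 and 40.8 CPM in shNC and 75.8, 39.6 and 35.3 CPM with PLEK2 shRNA. The fold was 1.83 (adjusted p = 0.000105), and no library of replicates 2 or 3 reached a library of replicate 1. DDIT3 measured 8.73, 4.87 and 6.02 CPM in shNC and 7.37, 4.66 and 5.63 CPM with PLEK2 shRNA. Its replicate 1 was 1.52-fold above the others (adjusted p = 0.0140), on 69 to 134 counts a library. ATF4 was 1.07-fold higher in replicate 1 and did not pass (adjusted p = 0.443), so the mRNA of the factor differed far less between the numbers than those of CHOP and CHAC1, although the difference between the genes was not tested.

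On the other side, SLC7A5 was 1.22-fold higher in the mean of replicates 2 and 3 than in replicate 1 (adjusted p = 0.00403), PHGDH 1.18-fold (adjusted p = 0.0480) and ASNS 1.19-fold (adjusted p = 0.000861). For ASNS this mean hides the order, since shNC replicates 1 and 3 were level (123.71 and 123.80 CPM) and replicate 2 was the high library of both groups. Its log2 difference was 0.44 from replicate 1 to replicate 2 and 0.05 from replicate 1 to replicate 3. TRIB3 was 1.08-fold higher in replicates 2 and 3 (adjusted p = 0.373), and PSAT1 had an adjusted p of 0.103. Measured as the root mean square difference of profiles over the 6 libraries (log2 CPM, centred and divided by its SD), the closest pairs were DDIT3 and CHAC1 (0.343), DDIT4 and CHAC1 (0.384), ASNS and SLC7A5 (0.389) and PHGDH and SLC7A5 (0.396), and the most distant was DDIT4 and SLC7A5 (1.73). ASNS and CHAC1, which both hold the C/EBP-ATF pattern, were highest in replicate 2 and replicate 1. A part of the element in these orders was not tested.

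**Figure D3:**
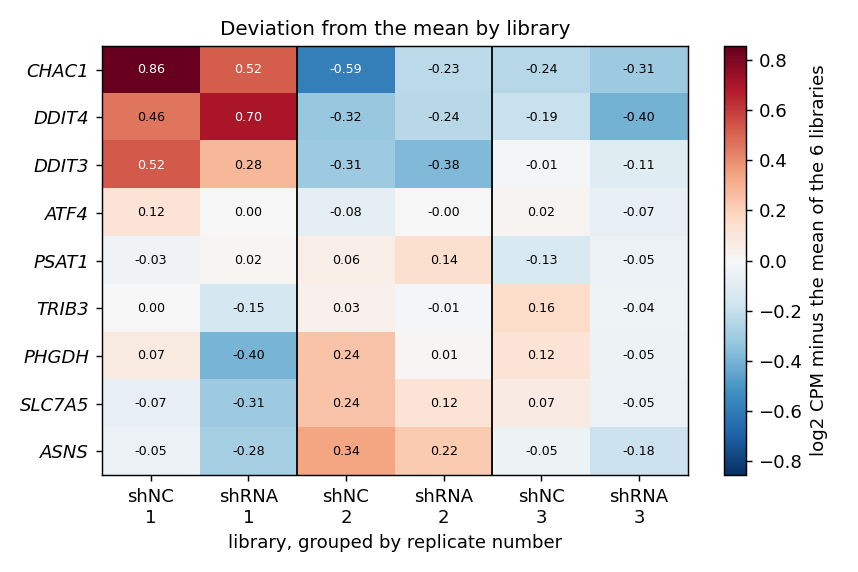
Log2 CPM of the 9 tested genes minus the gene's mean over the 6 libraries (colour and printed value), with libraries in columns grouped by replicate number and black lines between the numbers. The columns of replicate 1 hold the highest values of CHAC1 (0.86 and 0.52), DDIT4 (0.46 and 0.70) and DDIT3 (0.52 and 0.28), and the PLEK2 shRNA replicate 1 column the lowest values of PHGDH (-0.40), SLC7A5 (-0.31) and ASNS (-0.28).

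How far the replicate pattern rests on single libraries differed between the genes. The calls of CHAC1, DDIT4 and ASNS held when any 1 library was left out. DDIT3 lost its call without shNC replicate 1 (adjusted p = 0.0643), shNC replicate 2 (0.0925) or PLEK2 shRNA replicate 2 (0.0607), SLC7A5 without shNC replicate 2 (0.0675) or PLEK2 shRNA replicate 2 (0.0971), and PHGDH without shNC replicate 2 (0.190), PLEK2 shRNA replicate 1 (0.267) or PLEK2 shRNA replicate 2 (0.240). PSAT1 passed without shNC replicate 1 (0.0428) or PLEK2 shRNA replicate 1 (0.0436). Without replicate 1 of both groups only ASNS passed (adjusted p = 9.8e-05), and without replicate 2 of both groups only DDIT4 (0.000795) and CHAC1 (0.00988). The likelihood ratio test of DESeq2 called ASNS, DDIT4 and SLC7A5 and returned no adjusted p for DDIT3 and CHAC1.

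Other genes of the pathway, taken from fixed lists, were read in the same fits, and without the block none of them passed the knockdown test. At an unadjusted p under 0.05 the blocked test gave 1 of 18 genes of the eIF2 machinery, 3 of 9 transporters, 0 of 11 synthesis genes, 2 of 12 tRNA synthetases, 6 of 19 other ATF4 or CHOP targets and 2 of 19 genes of the ATF6 and XBP1 branch, beside the 18.3% of all genes. The counts per list below for the replicate term stand beside 28.4% of all genes tested. Replicate 1 was highest in both groups for 29% of all genes and lowest for 30.6%. Upstream, the 18 tested genes were eIF2 kinases, eIF2 subunits, eIF2B, the eIF2 phosphatase subunits, GCN1, IMPACT, DELE1 and OMA1. Of these, 0 passed the knockdown test with the block and 3 passed the replicate term. Among the 3, EIF2S2, the beta subunit of eIF2, was highest in replicate 1 of both groups (adjusted p = 0.0162). It measured 179.6, 148 and 172 CPM in shNC and 194, 154 and 159 CPM with PLEK2 shRNA. PPP1R15B, a subunit that directs dephosphorylation of eIF2, had a blocked log2 fold change of 0.21 (adjusted p = 0.0964) and a replicate term of adjusted p = 0.0165. GCN1, which activates the kinase GCN2, had a blocked log2 fold change of -0.09 (adjusted p = 0.438).

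Among 9 tested amino acid transporters, 0 passed the knockdown test with the block and 4 the replicate term, split 2 and 2 between highest and lowest in replicate 1. SLC3A2, the heavy chain that pairs with SLC7A5, measured 339, 410 and 378 CPM in shNC and 289.8, 364 and 343 CPM with PLEK2 shRNA. Like SLC7A5 it was lowest in replicate 1 of both groups (replicate term, adjusted p = 0.00915) and below its partner in each pair (blocked log2 fold change -0.18, adjusted p = 0.104). SLC7A11, the cystine importer, ran in the opposite order at 18.6, 9.95 and 13.0 CPM in shNC and 21.0, 11.8 and 12.2 CPM with PLEK2 shRNA, 1.69-fold higher in replicate 1 (adjusted p = 0.000864). SLC38A2, a neutral amino acid importer, was 1.4-fold higher in replicate 1 (adjusted p = 0.000272) and above its partner in each pair, with a blocked log2 fold change of 0.23 (adjusted p = 0.0535).

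Of 11 tested genes for serine, one-carbon and amino acid synthesis, 0 passed the knockdown test with the block and 2 the replicate term, ASS1 (argininosuccinate synthase, adjusted p = 0.0172) and PYCR1 (proline synthesis, adjusted p = 0.0419), both lowest in replicate 1 of both groups, as PHGDH and ASNS were. The mitochondrial and serine-linked one-carbon enzymes SHMT2 and MTHFD2 had blocked log2 fold changes of -0.11 (adjusted p = 0.333) and 0.09 (adjusted p = 0.374). For 12 tRNA synthetases induced by ATF4 the counts were 0 for the knockdown and 4 for the replicate term. IARS and NARS were 1.4-fold and 1.28-fold higher in replicate 1 (adjusted p = 0.000520 and 0.00139), and CARS was 1.21-fold lower (adjusted p = 0.00900). All 3 hold the C/EBP-ATF response element, as did 7 of the 10 synthetases with a promoter window, beside 4.46% of all genes with a window. A part of the element in these orders was not tested.

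Other targets of ATF4 or CHOP gave 1 gene past the knockdown test with the block among 19 tested. Of all genes that test called 0.123% up and 0.725% down. The replicate term called 8 of the 19, where it called 28.4% of all genes. Of the 8, 6 were highest and 1 lowest in replicate 1 of both groups. BCL2L11, which encodes the cell death activator BIM, rose with PLEK2 shRNA in the blocked fit. It measured 88.7, 91.8 and 83.6 CPM in shNC and 110, 107 and 102 CPM with PLEK2 shRNA (log2 fold change 0.27, SE 0.06, adjusted p = 0.0463, against 0.968 without the block). The blocked value lay close to the threshold of 0.05. The groups of BCL2L11 did not overlap, as held on the higher side for 4.08% of all genes tested. TNFRSF10B, a death receptor, had a blocked log2 fold change of 0.21 (adjusted p = 0.0898). ATF3, a transcription factor of the stress response, was like CHAC1 highest in replicate 1 of both groups. It measured 41.1, 19.6 and 24.4 CPM in shNC and 42.8, 21.0 and 23.2 CPM with PLEK2 shRNA. ATF3 was 1.91-fold higher in replicate 1 (adjusted p = 4.9e-05), and STC2, a secreted glycoprotein, was 1.25-fold higher (adjusted p = 0.00751).

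In the ATF6 and XBP1 branch, which supplies chaperones of the endoplasmic reticulum, 0 of 19 tested genes passed the knockdown test with the block. The replicate term called 4, a smaller share than the 28.4% of all genes, and all 4 were highest in replicate 1 of both groups. HSPA5 (BiP) measured 857, 595 and 563 CPM in shNC and 733, 628 and 607 CPM with PLEK2 shRNA (1.33-fold, adjusted p = 0.00279). HSP90B1 (GRP94) was 1.28-fold higher in replicate 1 (adjusted p = 0.00169) and SEL1L, of the degradation machinery, 1.29-fold (adjusted p = 0.00940). XBP1 had a blocked log2 fold change of -0.26 (adjusted p = 0.0992). Cell type markers moved with the replicate number as well, since 3 of 6 tested colon epithelial markers (KRT8, KRT18 and CDX2) and 2 of 4 markers of other cell types (CD68 and DES) passed the replicate term, all lowest in replicate 1 of both groups, beside 28.4% of all genes that passed. Their part in the differences between replicate numbers was not tested.

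**Figure D4:**
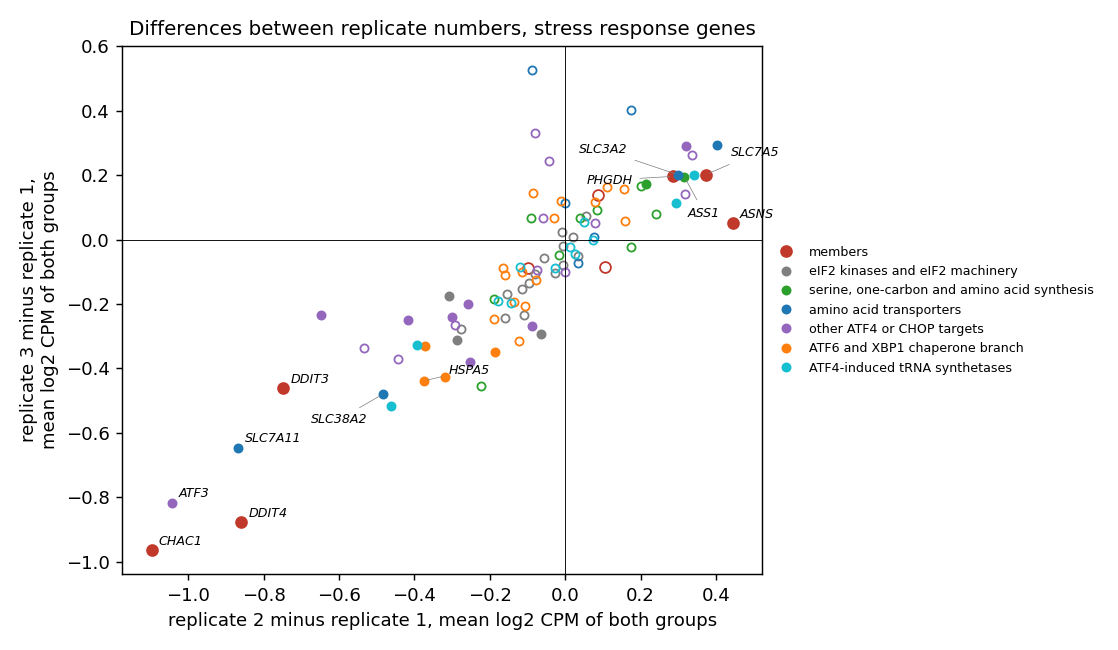
Difference of mean log2 CPM (both groups) between replicate 2 and replicate 1 (x axis) and between replicate 3 and replicate 1 (y axis) for tested genes of the fixed stress response lists, coloured by list; filled points passed the replicate term at an adjusted p under 0.05 and open points did not. CHAC1, ATF3, DDIT4, SLC7A11 and DDIT3 lie at the lower left (CHAC1 -1.10 and -0.96), and SLC7A5, SLC3A2, PHGDH, ASS1 and ASNS at the right (ASNS 0.44 and 0.05).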

How the data were processed

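Polyadenylated RNA of HCT116 cells was sequenced as single-end reads of 50 nt on a DNBSEQ platform, 3 libraries with shNC and 3 with PLEK2 shRNA. The authors deposited estimated counts per gene, not normalized, and values read here as FPKM from their relation to the counts, because the header gives no unit. The submitters' processing notes name HISAT2 2.0.4, Bowtie2 2.2.5, RSEM 1.2.12 and DESeq2 1.4.5 without their order, and the mouse genome build GRCm38.p6, although the gene identifiers are human. The strand setting of the counting was not given in the sources used here.

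Estimated counts were rounded to whole numbers, filtered (filterByExpr, 12959 of 17047 genes kept), scaled by TMM (factors 0.984 to 1.02) and tested with edgeR 4.0.16 (quasi-likelihood, Benjamini-Hochberg over all genes tested) in R 4.3.3. CPM values are counts scaled by the library total times its TMM factor. Log2 ratios of single pairs used a prior count of 0.5. The scripts were tested on simulated data. The alternatives were other scalings and filters, DESeq2 1.42.0, limma 3.58.1 on log2(FPKM + 1), the replicate block, and leaving out libraries.

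The labels give the groups the same replicate numbers. Over 10141 genes, each library's departure from its group mean was compared across groups. Pearson correlations were 0.733, 0.549 and 0.541 for shared numbers and -0.628 to 0.350 for unlike numbers. Replicates 2 and 3 correlated with each other across groups at 0.343 and 0.350, so these 2 numbers were told apart less clearly than replicate 1. Centring on the group mean makes positive correlations come with negative ones, so the values are not independent. The numbers were taken as pairs on this basis. This pairing comes from the data and the labels' numbers, since no shared day or batch is stated. The 10 genes and all lists were chosen with earlier results of these data known. From each list the text names genes past the knockdown threshold, and the 2 genes with the smallest p in the blocked fit and in the replicate term. The counts by order of replicate 1, the 3 orders by scaling and the cell type markers named beside the replicate term were chosen after values were seen. The deposited group means were not used.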

Additional observations from a re-analysis of the deposited data

How the results depend on the processing

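The count of the 9 genes past the knockdown test was 0 in each alternative except the blocked fit without replicate 3, which called PHGDH (range 0 to 1 over the fits that leave out libraries), and DESeq2 with the block returned no adjusted p for DDIT3, DDIT4, TRIB3, CHAC1 and PHGDH. Over all genes the knockdown count was 0 without the block and 110 with the replicate block (16 up, 94 down), 192 with library totals and the block (83 up, 109 down, median log2 fold change of all genes 0.03), 12 with DESeq2, 74 with DESeq2 and the block, and 0 to 528 when libraries were left out, where removing both libraries of replicate 1, 2 or 3 gave 528, 18 or 297 with the block and removing PLEK2 shRNA replicate 1 gave 1. The replicate block changed no other call of a member. The replicate term called 3684 genes and 6 of the 9. DESeq2's likelihood ratio test called 1782 and 3. Leaving out libraries gave 137 to 3965 genes and 1 to 6 of the 9, with 1966 genes and 3 members without shNC replicate 2, 1905 and 3 without PLEK2 shRNA replicate 2, 137 and 1 without replicate 1, and 2 members without replicate 2. The call of PHGDH was also lost with DESeq2 size factors (adjusted p = 0.0549), the loosest filter (0.0543) and limma on FPKM (0.0581). The cause of these changes was not tested.

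Among genes with no call, the sign of the knockdown log2 fold change turned only when libraries were left out, within -0.084 to 0.018 for ATF4, -0.35 to 0.13 for DDIT3, -0.34 to 0.38 for DDIT4 and -0.43 to 0.47 for CHAC1 without 1 library, and to -0.056 for DDIT4 and 0.14 for CHAC1 in the blocked fit without replicate 1. ATF4, DDIT3 and CHAC1 turned without shNC replicate 1, CHAC1 also without PLEK2 shRNA replicate 2 (0.012) or 3 (0.039), and DDIT4 without shNC replicate 2 (-0.051) or 3 (-0.0023) or PLEK2 shRNA replicate 1 (-0.34). With 3 libraries a group, an exact unpaired two-sided permutation test could not go below p = 0.1, and within 3 pairs the floor is higher. Unadjusted knockdown p-values under 0.05 numbered 400 without the block.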

Other observations

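The profiles nearest to the mean profile of the 9 tested genes over the 6 libraries, among 10134 other genes, were those of JMJD6, CYR61, CDR2, AMMECR1L and ZNF704, with root mean square differences of 0.577 to 0.585 on the scale of centred log2 CPM divided by its SD. The mean profile joins genes that ran in opposite directions, and it stood at 0.58 in shNC replicate 1 and at -0.54 in PLEK2 shRNA replicate 3. Among the 9 genes the distances between pairs ran from 0.343 (DDIT3 and CHAC1) to 1.73 (DDIT4 and SLC7A5).

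The ATF6 element occurred in 7 of the 19 genes of the ATF6 and XBP1 list with a promoter window, HSPA5, HSP90B1, PDIA6, CALR, CANX, CRELD2 and XBP1, and in 0 genes of the other stress response lists. Among all genes with a window its share was 0.0916%. The C/EBP-ATF response element occurred in 0 of the 19 ATF6 and XBP1 genes and in 4 of 8 transporters with a window, SLC3A2, SLC7A1, SLC1A4 and SLC1A5. It also occurred in 5 of 16 other ATF4 or CHOP targets, ATF3, CEBPG, JDP2, FGF21 and HERPUD1. In the eIF2 machinery the count was 1 of 16 (PPP1R15B), and among the synthesis genes 2 of 7 (MTHFD1L and GOT1). Its share of all genes with a window was 4.46%. These are counts of letters in promoter windows, without a test. Some lists were drawn up as targets of these factors, so their shares are not an independent result.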
